A study of Mus musculus with 7 samples.

Results

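Glucose uptake by muscle under insulin was examined through 8 genes, *Slc2a4*, *Hk2*, *Insr*, *Irs1*, *Irs2*, *Akt2*, *Tbc1d1* and *Tbc1d4*. The genes were chosen by name out of 21938 protein-coding genes of the GENCODE M21 annotation. Every ChIP-seq peak that overlapped a gene body or lay within 10 kb of any of its annotated transcription start sites (TSSs) on the mouse build mm10 (GRCm38) was taken. This gave 223 of the 527912 peaks in 6 lists, over 804.5 kb of sequence.

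The lists came from gastrocnemius muscle, a calf muscle of mixed and mostly fast fibers, of wild-type C57BL/6J male mice aged 5 months that were fed chow under a light and dark cycle. BMAL1, the activating factor of the circadian clock, and the polymerase of protein-coding genes (RNA polymerase II, RNAP2) were studied at ZT 4, the clock repressor REV-ERBα at ZT 8, where ZT counts hours from lights on. Each factor had 2 biological replicates, from about 300 mg of muscle sonicated to fragments of 0.5 to 1 kb, and the lists were called against input DNA of muscle. All groups are thus normal muscle, no list from muscle without BMAL1 or REV-ERBα was used here, and the factor and the time of day cannot be told apart between BMAL1 and REV-ERBα.

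Insulin binds its receptor on the muscle fiber, the receptor phosphorylates the IRS adaptors, and these activate phosphoinositide 3-kinase and then the kinase AKT2. AKT2 phosphorylates the Rab-GTPase activating proteins TBC1D4 and TBC1D1, which otherwise keep vesicles with the glucose transporter GLUT4 inside the cell. GLUT4 then reaches the surface, and hexokinase 2 traps the glucose that enters by phosphorylating it. In cells generally, BMAL1 with its partner CLOCK binds E-boxes, with CACGTG as the classic form, and REV-ERBα binds the hexamer AGGTCA with an AT-rich flank or is tethered to DNA by other factors.

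A peak is given here by the −log10 p and the fold enrichment over the input that MACS2 assigned to it, and these values describe 1 list, not the spread between mice. A region counted as found in both replicates when peaks of both lists overlapped by at least 1 bp. The lists differ in length, and reads per peak are unknown. Replicates 1 and 2 of BMAL1 gave 34737 and 177669 peaks, those of REV-ERBα 28881 and 29934, and those of RNAP2 87870 and 168821. The RNAP2 lists were checked as muscle lists at marker genes, and the BMAL1 and REV-ERBα lists were not checked in this way. Regions of RNAP2 shared by its replicates were within 1 kb of the TSS at 10 of 10 muscle genes, 0 of 6 liver, 0 of 5 adipocyte and 0 of 6 endothelial genes, 1 of 6 leukocyte genes (*Csf1r*) and 3 of 5 fibroblast genes (*Col1a1*, *Col1a2*, *Dcn*). The part of these other cells in the results was not tested.

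The data showed RNAP2 at the start of 6 of the 8 genes in both replicates. REV-ERBα regions lay at the promoter of *Slc2a4* and at the most upstream annotated start of *Akt2*. BMAL1 regions lay only deep inside *Tbc1d1* and *Tbc1d4*. By factor, a BMAL1 region found in both replicates lay in the window of 2 of 8 genes, against 6.81% of all protein-coding genes. A REV-ERBα region did so for 2 of 8, against 4.44%, and an RNAP2 region for 6 of 8, against 41.1%. 1 of 8 genes, *Slc2a4*, had a site marked in 3 or all of the 4 lists of the clock factors, against 1.62%. With so few genes, 1 gene more or less moves these counts by 12.5 percentage points.

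**Figure D1:**
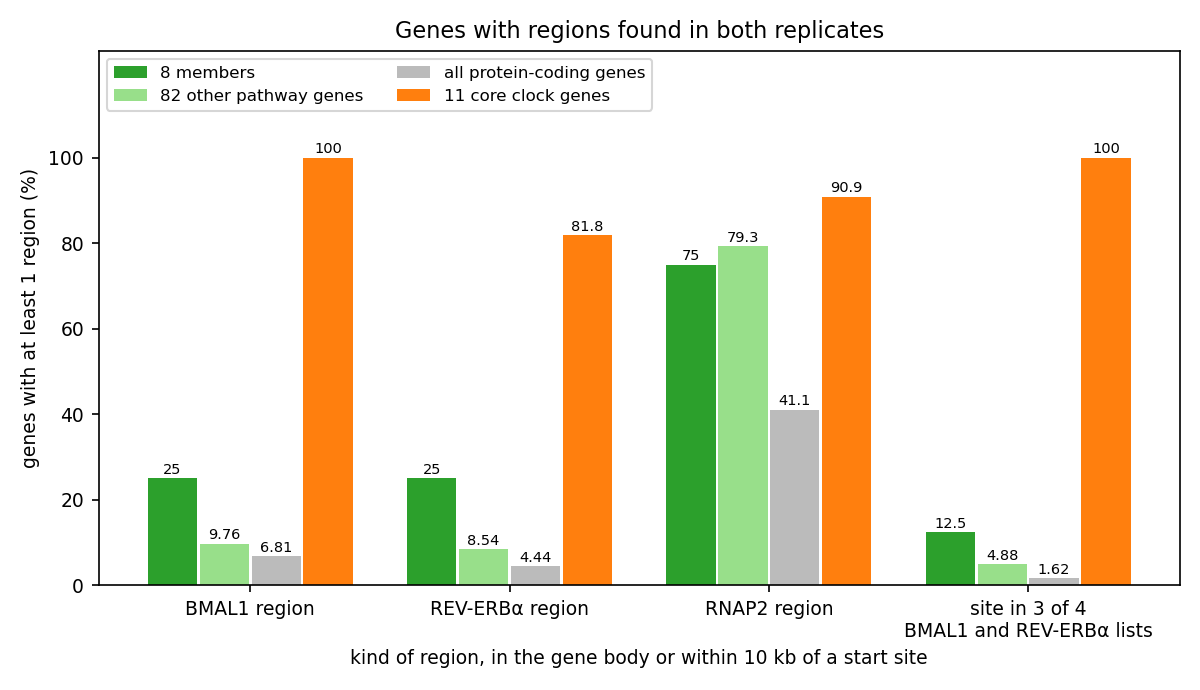
Share of genes (y axis, percent) with at least 1 region found in both replicates, for each kind of region on the x axis, in the 8 genes, 82 other genes of the pathway, all protein-coding genes and 11 core clock genes. The 8 genes stand at 25, 25, 75 and 12.5%, while the clock genes stand at 100, 81.8, 90.9 and 100%.

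Both BMAL1 genes have long windows, and long windows catch more regions. Among the 2850 genes with windows over 100 kb, 22.1% had a BMAL1 region in both replicates, against 7.01% of those with 30 to 100 kb and 2.67% of those under 30 kb. *Tbc1d1*, *Tbc1d4* and *Insr* are in the longest class, so 2 of 3 genes there had a region. REV-ERBα depended less on length, with 7.47%, 4.72% and 3.44% from the longest class to the shortest, and its regions lay at the short *Slc2a4* and the medium-sized *Akt2*. A REV-ERBα region within 1 kb of a TSS was found for 2 of 8 genes, against 2.0% of all genes, and one that reached 3 in −log10 p in each list likewise for 2 of 8, against 2.47%.

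Peaks in single lists were common at these genes, as they were at all genes. At least 1 BMAL1 peak was listed for 7 of 8 genes in replicate 1, against 38.2% of all genes, and for 8 of 8 in replicate 2, against 84.4%. For REV-ERBα the counts were 6 of 8 (38.7%) and 7 of 8 (40.1%), and for RNAP2 8 of 8 in both lists (76.9% and 86.5%). Per 100 kb of window the 8 genes held 2.11 and 8.70 BMAL1 peaks, against 1.41 and 7.79 over the windows of all genes. REV-ERBα peaks numbered 1.62 and 2.36, against 1.21 and 1.28, and RNAP2 peaks 5.34 and 7.58, against 4.12 and 6.99. Most of these peaks were weak: 68 of 223 had a −log10 p of at least 3 and 22 a q-value of 0.05 or less. By list, 3 was reached by 35.3% and 8.57% of the BMAL1 peaks, against 13.8% and 6.44% of all peaks of those lists. For REV-ERBα it was 46.2% and 26.3%, against 26.2% and 26.9%, and for RNAP2 74.4% and 21.3%, against 60.0% and 15.0%. Of the 22 peaks, 0 were BMAL1 peaks, 1 in each list were REV-ERBα peaks, and 14 and 6 were RNAP2 peaks. The whole lists held 92 and 36 such BMAL1 peaks, 324 and 423 of REV-ERBα, and 10997 and 3622 of RNAP2.

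**Figure D2:**
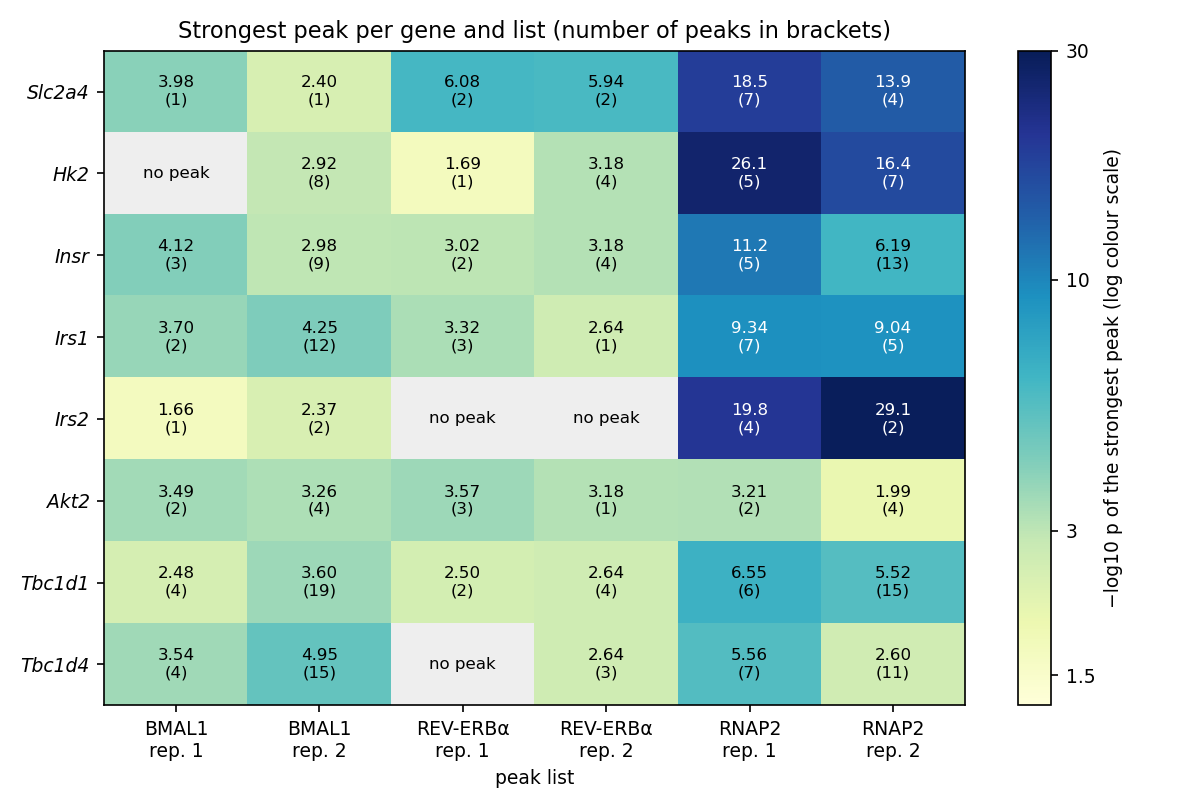
Strongest peak of each gene (rows) in each of the 6 lists (columns), as −log10 p, with the number of peaks in brackets. Color follows −log10 p on a log scale, and grey marks a gene with no peak in that list. RNAP2 stands out at *Hk2*, *Irs2* and *Slc2a4*, from 13.9 to 29.1, while no BMAL1 value passes 4.95 and no REV-ERBα value passes 6.08.

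*Slc2a4* (ENSMUSG00000018566) encodes GLUT4, the glucose transporter that insulin and contraction bring to the fiber surface, and lies on the reverse strand of chromosome 11 from 69942539 to 69948188. REV-ERBα had a region at its promoter in both replicates, chr11:69948180-69949168. The −log10 p was 4.43 in replicate 1 and 3.13 in replicate 2, with fold enrichments of 2.71 and 2.38. The summits lay at −261 and −464 bp from the nearest TSS, so the lists place the center of the region 203 bp apart. By the lower −log10 p this region ranked 446th among the 1263 REV-ERBα regions found in both replicates. Its −log10 q was 0.28 and 0.0, so it does not pass a q-value of 0.05 in either list. Neither BMAL1 list had a peak within 500 bp of any *Slc2a4* TSS.

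The same promoter carried RNAP2 in both replicates. The RNAP2 region chr11:69947143-69948541 had a −log10 p of 15.2 and 13.9 and fold enrichments of 7.32 and 6.84, with summits at +20 and +60 bp. It overlapped the REV-ERBα region, whose summits were further upstream. RNAP2 peaks covered 30.7% and 16.7% of the gene body in replicates 1 and 2, the most of the 8 genes in both lists, against a median over all genes of 0.916% and 2.57%. *Slc2a4* is also the shortest of the 8 genes, and its promoter peak alone reaches well into it. In replicate 2 that peak was the only RNAP2 peak over the gene body and made up all of the 16.7%. In replicate 1 smaller peaks inside the gene added to the promoter peak.

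The sequence at the replicate 2 summit of the REV-ERBα region is shown because it holds a match for MEF2, a muscle factor long known to act on this promoter. It is 151 bases of GRCm38, chr11:69948577-69948727, on the strand of the gene, with, in capitals, an E-box of the loose form CANNTG and then the match to the MEF2 consensus. It lies outside exons.
Slc2a4 promoter: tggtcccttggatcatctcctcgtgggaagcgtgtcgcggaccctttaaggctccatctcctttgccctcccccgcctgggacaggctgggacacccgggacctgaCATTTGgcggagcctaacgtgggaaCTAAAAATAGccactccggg
The MEF2 match began at −408 bp and lay 56 bp from the summit. A MEF2 match within 100 bp of the replicate 2 summit was found in 4.04% of the 1263 REV-ERBα regions, and 1 of the 3 regions at the 8 genes had it. At the replicate 1 summit there was instead a CAGCTG, an E-box form that myogenic factors use, which 12.7% of the regions had. The hexamers AGGTCA and GGGTCA were in neither window.

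A second REV-ERBα region in the *Slc2a4* window lay past the 3′ end of the gene, inside the neighbor *Ybx2*, which encodes a germ cell Y-box protein and runs toward *Slc2a4* on the forward strand from 69935796 to 69941605. This region, chr11:69939944-69941740, was stronger than the one at the promoter. Its −log10 p was 6.08 and 5.94, with fold enrichments of 3.57 and 3.40, and it ranked 200th of 1263. These were the only 2 REV-ERBα peaks at the 8 genes with a q-value of 0.05 or less.

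The site also had BMAL1 in both lists, which made it the single site of the 8 genes with all 4 clock lists. The BMAL1 −log10 p was 3.98 in replicate 1 and 2.40 in replicate 2. Their peaks did not overlap each other and joined only through the wider REV-ERBα peaks, so no BMAL1 region in both replicates was counted. The summits of the 4 lists fell 6949, 7956, 7834 and 7101 bp downstream of the nearest *Slc2a4* TSS (BMAL1 1 and 2, REV-ERBα 1 and 2). The nearest TSS of any protein-coding gene was that of a *Ybx2* transcript, 293 and 329 bp from the REV-ERBα summits. The site is therefore within the *Slc2a4* window by the distance rule only, and it leaves the window when the distance is set to 5 kb.

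RNAP2 was at this site too, with a −log10 p of 18.5 in replicate 1, above its value at the *Slc2a4* promoter, but of 3.97 in replicate 2. The replicate 2 summit lay 1539 bp from that of replicate 1. Below are 151 bases at the REV-ERBα replicate 2 summit, chr11:69940798-69940948 of GRCm38, on the strand of *Slc2a4* and outside exons, shown as the sequence under the strongest REV-ERBα peaks of the 8 genes.
Slc2a4 downstream site: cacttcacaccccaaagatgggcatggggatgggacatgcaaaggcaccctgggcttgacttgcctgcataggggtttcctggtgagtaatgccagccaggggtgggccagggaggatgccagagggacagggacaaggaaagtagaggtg
No letter is in capitals, because none of the motifs searched was found there.

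**Figure D3:**
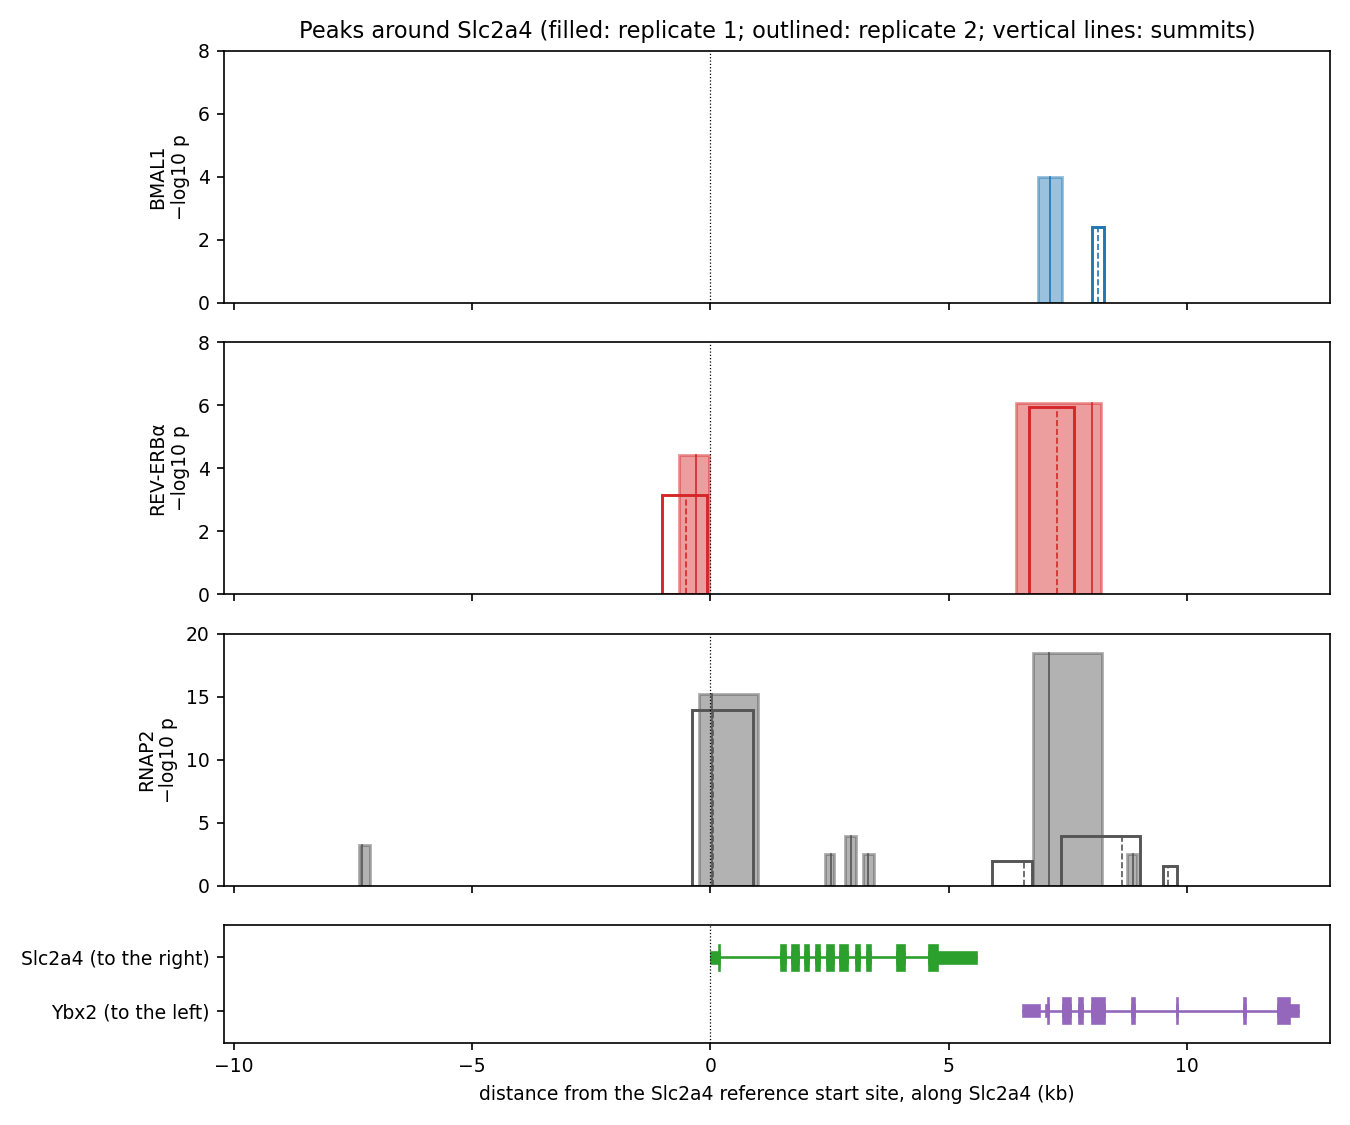
Peaks around *Slc2a4* in the 3 factors, drawn as boxes from start to end with −log10 p as height (y axes, with a different scale for RNAP2), against the distance from the *Slc2a4* reference start site in kb (x axis). Filled boxes are replicate 1, outlined boxes replicate 2, vertical lines the summits, and the bottom row shows exons of *Slc2a4* and *Ybx2*. REV-ERBα boxes of both replicates overlap at the promoter and again about 7 kb downstream, inside *Ybx2*, where the 2 BMAL1 boxes stand apart.

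*Hk2* (ENSMUSG00000000628, chromosome 6, 82725025 to 82774454, reverse strand) encodes hexokinase 2, the insulin-responsive hexokinase of muscle. It had a strong RNAP2 region at its TSS, chr6:82773063-82775022, with a −log10 p of 26.1 and 16.4, fold enrichments of 11.04 and 7.46 and summits at +44 and −14 bp. This was the highest fold enrichment of any peak at the 8 genes. A weaker RNAP2 region in an intron had 3.26 and 2.26.

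The clock factors left no region in both replicates at *Hk2*. BMAL1 had 0 peaks in replicate 1 and 8 in replicate 2, of which the strongest had a −log10 p of 2.92. REV-ERBα had 1 and 4 peaks, with 1.69 as the strongest in replicate 1 and 3.18 in replicate 2, at different positions. The REV-ERBα peak nearest the promoter, at −620 bp, was in replicate 2 alone with 2.15.

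*Insr* (ENSMUSG00000005534, chromosome 8, 3122061 to 3279617, reverse strand) encodes the insulin receptor. RNAP2 marked its TSS in both lists, chr8:3279280-3279726, with a −log10 p of 11.2 and 6.19, fold enrichments of 6.21 and 4.04 and summits at +39 and +14 bp. The 3 and 9 BMAL1 peaks and the 2 and 4 REV-ERBα peaks lay within the gene and more than 500 bp from that TSS. The strongest BMAL1 peaks had 4.12 and 2.98, the strongest REV-ERBα peaks 3.02 and 3.18, and none was shared by replicates.

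The receptor's adaptors *Irs1* and *Irs2* both carried RNAP2 at the start in both replicates, and differed in what else was there. *Irs1* (ENSMUSG00000055980, chromosome 1, 82233101 to 82291416, reverse strand) had 3 RNAP2 regions. The one at the TSS had a −log10 p of 5.69 and 9.04. Another in the intron, with summits 7819 and 8011 bp past the TSS, had 9.34 and 3.26, and the third, in the coding exon, had 3.21 and 1.99.

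At the *Irs1* TSS, REV-ERBα had a peak in each list that did not meet: one with 2.18 at +922 bp and one with 2.64 at +99 bp, with 314 bases between them. BMAL1 had a peak over the TSS in replicate 2 only, with 2.40. Joining peaks up to 500 bp apart, an alternative chosen after the values were seen, made *Irs1* the third of the 8 genes with a REV-ERBα region in both replicates and the second with a site in 3 of the 4 clock lists. The strongest BMAL1 peaks of *Irs1*, 3.70 and 4.25, were at different places.

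*Irs2* (ENSMUSG00000038894, chromosome 8, 10984681 to 11008458, reverse strand) had the strongest RNAP2 value of the 8 genes in replicate 2 and the next to strongest TSS value in replicate 1. Its region chr8:11007743-11009484 had a −log10 p of 19.8 and 29.1 and fold enrichments of 7.47 and 10.1. The summits lay at −430 and −439 bp of the GENCODE TSS, 9 bp apart, and inside the RefSeq promoter window of the gene, whose start is further upstream. The noncoding transcript 9530052E02Rik begins in the same region on the other strand, so its RNAP2 cannot be told apart from that of *Irs2*. REV-ERBα had no peak in either list, the single member for which this was so, and BMAL1 had 1 and 2 peaks of at most 1.66 and 2.37.

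Both adaptor promoters hold the classic E-box. RefSeq promoters, 250 bases before to 50 after each start on GRCm38.p6, were given for 6 of the 8 genes (10 promoters). CACGTG was in those of *Irs1* and *Irs2*, beginning at −115 and −44 bases from the start along the gene, and in 7.15% of 32851 RefSeq promoters. They are shown with CACGTG in capitals.
Irs1 promoter (chr1:82291390-82291689, reverse strand): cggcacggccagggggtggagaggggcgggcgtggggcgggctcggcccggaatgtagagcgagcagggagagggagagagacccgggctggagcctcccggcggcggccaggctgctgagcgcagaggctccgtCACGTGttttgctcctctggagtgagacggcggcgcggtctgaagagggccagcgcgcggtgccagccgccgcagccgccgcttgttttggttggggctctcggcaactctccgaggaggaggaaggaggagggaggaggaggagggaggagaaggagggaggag
Irs2 promoter (chr8:11008880-11009179, reverse strand): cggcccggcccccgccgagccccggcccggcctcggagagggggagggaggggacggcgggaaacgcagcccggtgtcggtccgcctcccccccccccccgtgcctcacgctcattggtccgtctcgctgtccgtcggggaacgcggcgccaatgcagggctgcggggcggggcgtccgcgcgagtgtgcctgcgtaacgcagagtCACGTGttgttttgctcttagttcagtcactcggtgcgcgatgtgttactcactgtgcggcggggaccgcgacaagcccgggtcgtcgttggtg
An E-box in the letters did not come with a BMAL1 region. At *Irs1* the nearest BMAL1 evidence was the replicate 2 peak of 2.40. At *Irs2* neither list had a BMAL1 peak within 500 bp of the GENCODE TSS or over the promoter shown. The nearest BMAL1 summit, in replicate 2, was at −6001 bp from the GENCODE TSS.

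*Akt2* (ENSMUSG00000004056, chromosome 7, 27591552 to 27640826, forward strand) encodes the AKT isoform through which insulin acts on glucose uptake. Its REV-ERBα region, chr7:27591488-27592490, lay at the most upstream of its 14 annotated TSSs. From the reference TSS of the gene the summits were at −13811 and −13902 bp. Neither REV-ERBα list had a peak within 500 bp of that reference TSS. The −log10 p was 3.57 and 3.18, the fold enrichments 2.68 and 2.55, and the summits fell in an intron at +301 and +210 bp from the nearest TSS. It ranked 416th of 1263, close to the *Slc2a4* promoter region, but its values are the common ones of these lists. Exactly the same −log10 p was given to 1650 peaks of replicate 1 and 3576 of replicate 2, while the values of the *Slc2a4* promoter were each shared by 3 peaks. A rarer value is not a stronger one. In replicate 1, 1799 peaks were above the *Akt2* value and 774 above that of *Slc2a4*. In replicate 2 the order turned, with 3983 above *Akt2* and 7586 above *Slc2a4*. The −log10 q of the *Akt2* region was 0.0 in both lists.

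RNAP2 was weak at *Akt2*. No RNAP2 region was found in both replicates, and the strongest peaks within 1 kb of a TSS had a −log10 p of 2.08 and 1.99. At the REV-ERBα region RNAP2 had a peak in replicate 2 only, with 1.99. The BMAL1 peaks, 2 and 4, reached 3.49 and 3.26 at different introns. The sequence at the REV-ERBα replicate 2 summit is chr7:27591881-27592031 of GRCm38, forward strand, outside exons.
Akt2 upstream promoter: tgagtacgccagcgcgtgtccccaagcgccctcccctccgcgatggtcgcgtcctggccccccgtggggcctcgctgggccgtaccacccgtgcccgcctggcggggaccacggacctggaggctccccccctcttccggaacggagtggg
It holds no hexamer, and 75.5% of its bases are G or C, against 60.9% in the stretch shown for the *Slc2a4* promoter and 58.9% downstream of that gene.

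*Tbc1d1* and *Tbc1d4* encode the Rab-GTPase activating proteins at the end of the pathway. TBC1D1 is abundant in fast fibers and also a target of AMPK, and TBC1D4, or AS160, is the form first known as an AKT substrate. *Tbc1d1* (ENSMUSG00000029174, chromosome 5, 64156305 to 64351486, forward strand) had RNAP2 at its reference TSS in both replicates, chr5:64159632-64160332, with 6.55 and 5.52 and fold enrichments of 4.59 and 3.94. The summits lay at −30 and −474 bp from the reference TSS, 444 bp apart, and that of replicate 2 was at −83 bp from another annotated TSS. For *Tbc1d4* (ENSMUSG00000033083, chromosome 14, 101442360 to 101609191, reverse strand) no RNAP2 peak lay within 500 bp of any annotated TSS in either list. Its strongest RNAP2 peaks were 5.56 in an intron in replicate 1 and 2.60 in replicate 2.

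The 3 BMAL1 regions found in both replicates at the 8 genes were all in these paralogs, and all were weak in at least 1 list. That of *Tbc1d1*, chr5:64263239-64263939, lay in an intron, with a −log10 p of 2.48 and 2.98 and summits at −11982 and −12040 bp from the closest TSS. In *Tbc1d4*, the region chr14:101460084-101460625 lay in an intron with 3.54 and 1.87. The other, chr14:101442214-101443373, covered the 3′ end of the gene with 1.85 and 4.95. The last value was the strongest BMAL1 peak of the 8 genes in replicate 2, but 29033 of the 34737 peaks of the replicate 1 list were stronger than its peak there. By the lower −log10 p, the *Tbc1d1* region ranked 273rd of the 2742 BMAL1 regions found in both replicates. Those of *Tbc1d4* ranked 1216th (intron) and 1891st (3′ end). A rank is the best place among tied regions, and many regions tie at the value of the *Tbc1d4* intron, the median of all. Only 31.8% (intron) and 30.3% (3′ end) of the regions were below those of *Tbc1d4*, against 86.8% below that of *Tbc1d1*. None of the 3 reached a q-value of 0.05. When each list had to reach a −log10 p of 3, 0 of the 3 were left, against 3 of 3 REV-ERBα regions. That limit is harder on BMAL1: 13.8% and 6.44% of all its peaks reach 3, against 26.2% and 26.9% for REV-ERBα.

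The intronic BMAL1 summits of replicate 2 are shown, on the strand of each gene and outside exons, since they are the BMAL1 regions of the set. Loose E-boxes CANNTG are in capitals.
Tbc1d1 intron (chr5:64263305-64263455): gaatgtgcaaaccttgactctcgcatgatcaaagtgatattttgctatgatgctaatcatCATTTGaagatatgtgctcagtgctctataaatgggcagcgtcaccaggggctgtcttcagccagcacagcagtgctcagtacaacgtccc
Tbc1d4 intron (chr14:101460319-101460469): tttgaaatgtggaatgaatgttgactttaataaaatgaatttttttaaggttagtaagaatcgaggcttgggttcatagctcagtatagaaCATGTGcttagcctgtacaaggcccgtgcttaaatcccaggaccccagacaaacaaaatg
CANNTG was within 100 bp of the summit in 2 of the 3 regions in replicate 1 and 3 of 3 in replicate 2, and in 64.9% and 66.2% of all 2742 BMAL1 regions. The classic CACGTG was in 0 of 3 at either summit, against 2.66% and 3.06% of all regions at the replicate 1 and 2 summits.

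REV-ERBα peaks at the genes of both Rab-GTPase activating proteins were weak. *Tbc1d1* had 2 and 4 peaks of at most 2.50 and 2.64, and *Tbc1d4* 0 and 3 of at most 2.64, with no region in both replicates. Per 100 kb this is 0.975 and 1.95 for *Tbc1d1* and 0 and 1.70 for *Tbc1d4*, against 1.21 and 1.28 over all genes. Within 500 bp of the *Tbc1d1* reference TSS, BMAL1 was listed in replicate 1 alone (2.47) and REV-ERBα in replicate 2 alone (2.46).

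**Figure D4:**
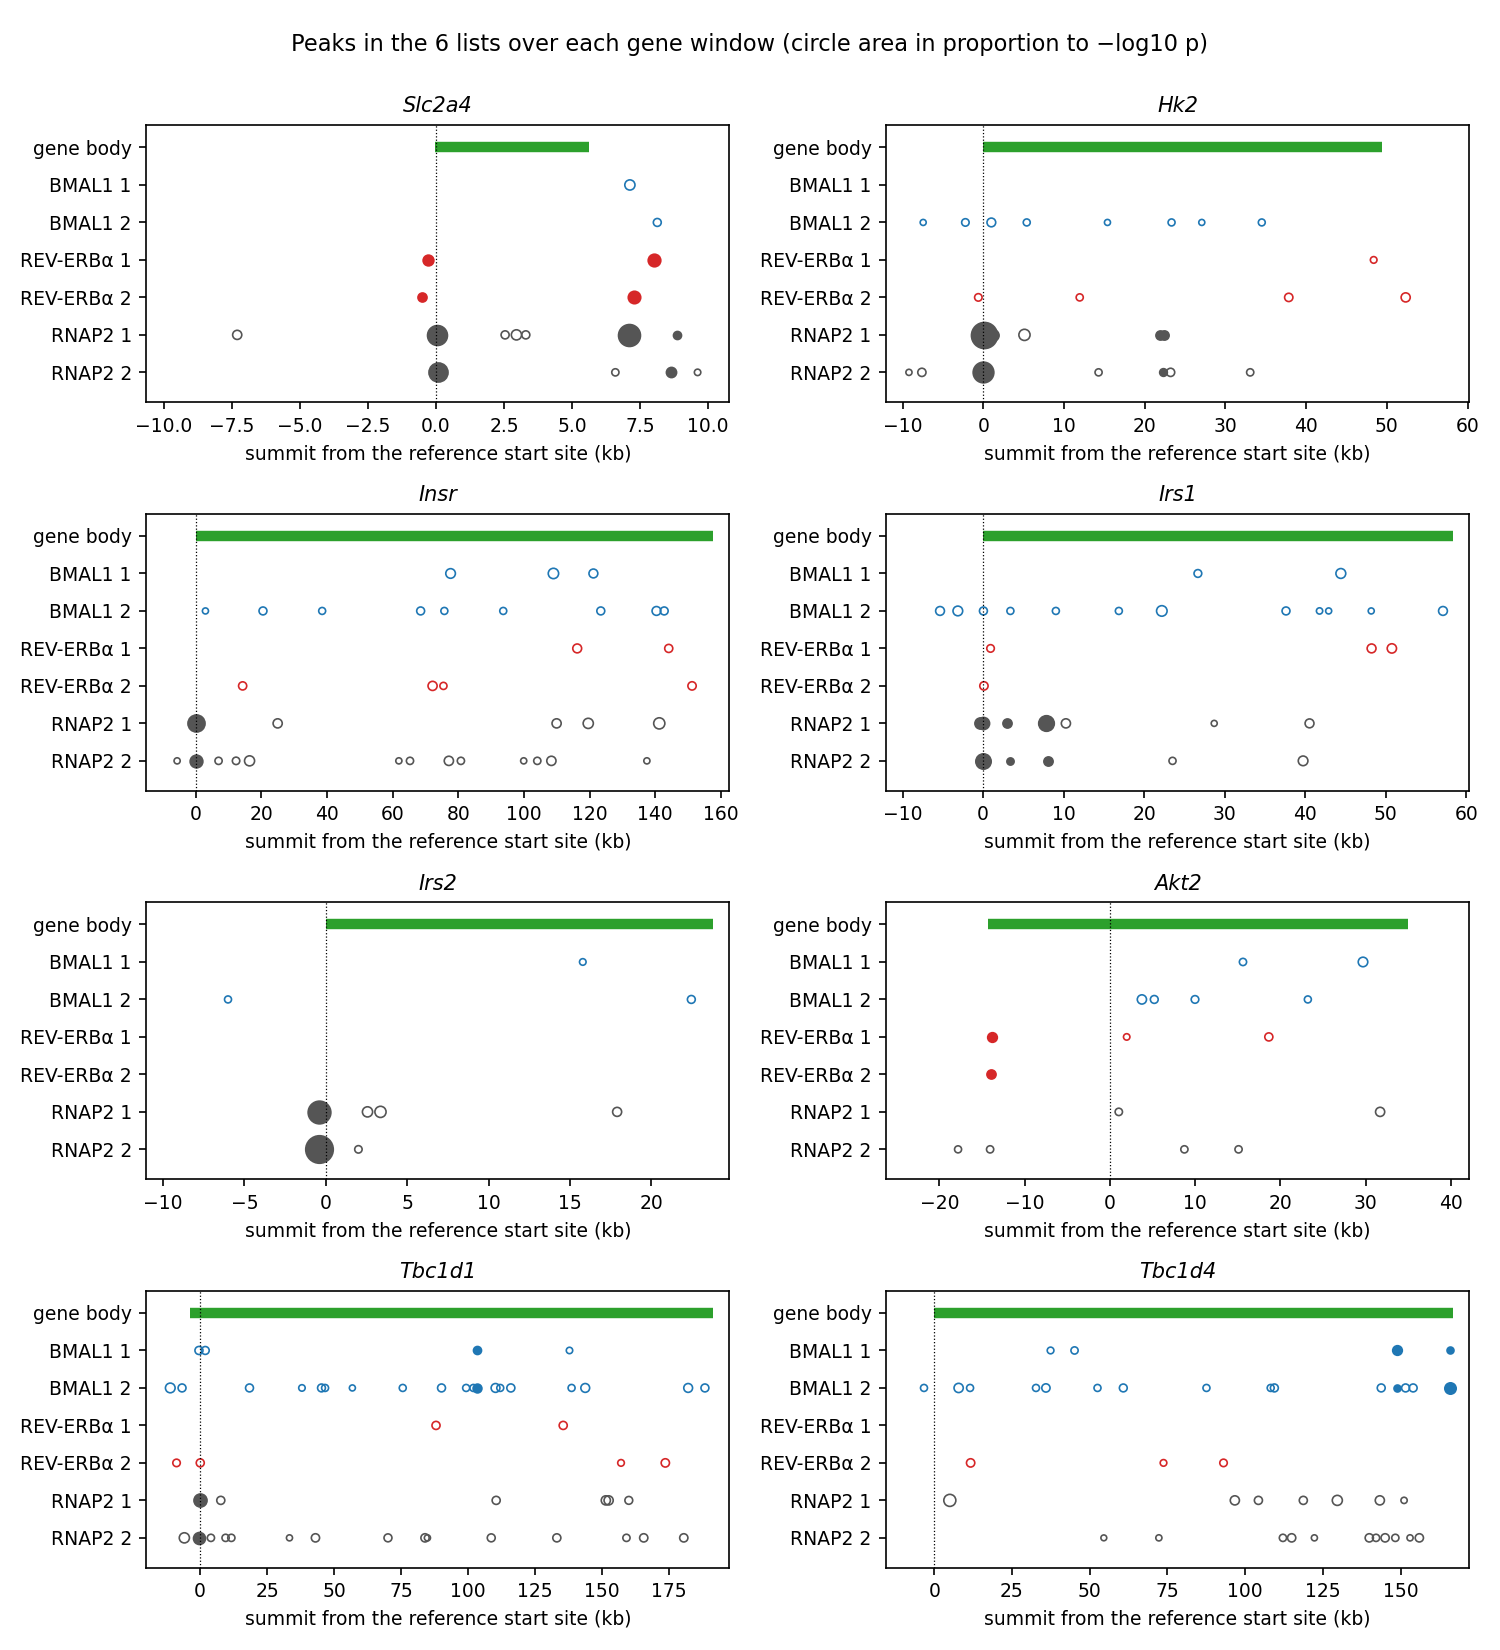
All 223 peaks of the 8 genes in 6 lists (rows, factor and replicate number), against the distance of the summit from the reference start site along the gene in kb (x axes, each with its own range). Circle area is in proportion to −log10 p, filled circles belong to a region found in both replicates, and the green bar is the gene body. Filled circles cluster at the start for RNAP2, while most BMAL1 and REV-ERBα circles are small and open.

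Motifs at REV-ERBα summits were also read against all REV-ERBα regions. AGGTCA was within 100 bp of the summit in 0 of the 3 regions at the 8 genes in either replicate, against 12.6% and 13.7% of the 1263 regions. GGGTCA was in 0 of 3, against 8.95% and 8.63%, and a direct repeat of these hexamers with 2 bases between was in 0 of 3, against 1 and 0 regions of all. CACGTG was in 0 of 3, against 3.56% and 4.28%. Both strands were searched, CACGTG and CAGCTG are also counted as CANNTG.

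Set side by side, RNAP2 at the start sites ordered the genes differently in the lists. In replicate 1 the order of −log10 p within 1 kb of a TSS was *Hk2* (26.1), *Irs2* (19.8), *Slc2a4* (15.2), *Insr* (11.2), *Tbc1d1* (6.55), *Irs1* (5.69) and *Akt2* (2.08). In replicate 2 it was *Irs2* (29.1), *Hk2* (16.4), *Slc2a4* (13.9), *Irs1* (9.04), *Insr* (6.19), *Tbc1d1* (5.52), *Tbc1d4* (2.60) and *Akt2* (1.99). The *Tbc1d4* value is that of an intronic peak 144968 bp past the reference TSS. It was counted because a noncoding transcript starts within 1 kb of it. *Hk2*, *Irs2* and *Slc2a4* were the top 3 in both, and *Akt2* and *Tbc1d4* were last in both, while neighbors within these blocks changed places. An RNAP2 region within 1 kb of a TSS was found for 6 of 8 genes, against 30.5% of all genes. By the lower value, those of *Irs2*, *Hk2* and *Slc2a4* were above 99.0%, 98.5% and 97.7% of all protein-coding genes. Reads per length were not at hand, so these are values of peaks and not levels of transcription.

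**Figure D5:**
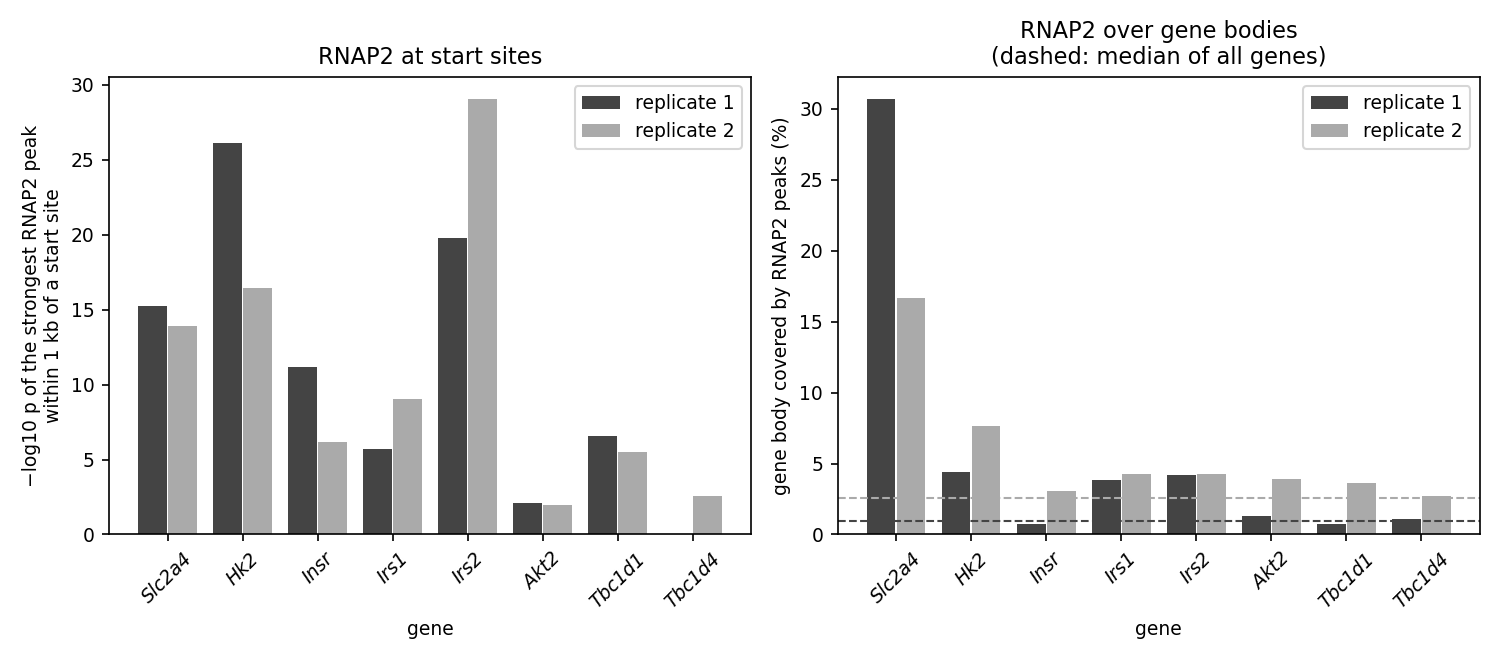
RNAP2 at the 8 genes in replicates 1 (dark) and 2 (light). Left, −log10 p of the strongest peak within 1 kb of a start site, where *Tbc1d4* had no peak in replicate 1. Right, percent of the gene body covered by RNAP2 peaks, with the median of all protein-coding genes dashed, and *Slc2a4* is highest at 30.7 and 16.7%.

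Other genes of insulin signaling and glucose uptake gave the setting. Among 82 such genes in 7 groups by role, a BMAL1 region in both replicates was found for 8 (9.76%, against 6.81% of all protein-coding genes). A REV-ERBα region was found for 7 (8.54%, against 4.44%) and an RNAP2 region for 65 (79.3%, against 41.1%). A site in 3 of the 4 clock lists was found for 4 (4.88%, against 1.62%). Glucose transporters and hexokinases other than *Slc2a4* and *Hk2* had 0 BMAL1 and 0 REV-ERBα regions in 8 genes, and 6 of them had RNAP2. The 8 AMPK genes had 0 with BMAL1, 1 with REV-ERBα and 6 with RNAP2. Groups of 8 genes are too small to set clock factor counts of 0 or 1 apart from the shares of all genes.

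REV-ERBα had higher values at the promoters of a few other genes of these lists than at the *Slc2a4* promoter. *Pik3r3*, a regulatory subunit of phosphoinositide 3-kinase, carried 49.6 and 68.1 (−log10 p, replicates 1 and 2) at its promoter, with the summit at −198 bp. *Mlst8*, a subunit of both mTOR complexes, one of which phosphorylates AKT, had 17.3 and 17.1 at −109 bp. *Cltc*, the clathrin heavy chain, had 19.5 and 12.7 at −63 bp. These promoter values are all above the 4.43 and 3.13 of *Slc2a4*.

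The regions of 3 further genes lay nearer to another gene. *Vamp2*, a vesicle SNARE of GLUT4 traffic, took the BMAL1 site of the clock gene *Per1* (36.5 and 21.2) and REV-ERBα at 5.41 and 7.69. *Sh2b1*, an adaptor of the receptor, took regions next to *Atp2a1*, with 15.6 and 14.6 for REV-ERBα and 5.38 and 3.60 for BMAL1. *Prkag3*, the AMPK subunit of fast fibers, took one nearest *Cyp27a1*, where the lower REV-ERBα value was 5.78.

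For RNAP2 the leading genes of the 82 were *Sh2b1* at the region next to *Atp2a1* (68.9 and 25.7), *Foxo1*, the transcription factor that AKT keeps out of the nucleus (21.9 and 26.8), and *Rab14*, a Rab protein of GLUT4 vesicles (22.7 and 18.7). The values of *Hk2*, *Irs2* and *Slc2a4* at their starts are of this size. As a reference for binding, the 11 core clock genes had a lower −log10 p of 3.36 to 21.7 for BMAL1 (median 8.80, 11 of 11 genes) and of 5.39 to 14.5 for REV-ERBα (median 7.09, 9 of 11). The 3 BMAL1 regions of the 8 genes, at 1.85 to 2.48, are below the whole of the first range. Of the 3 REV-ERBα regions, the one inside *Ybx2* at 5.94 is within the second range. Those at the *Slc2a4* promoter and the upstream *Akt2* start, at 3.13 and 3.18, are below it.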

How the data were processed

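ChIP-seq of BMAL1 (ZT 4), REV-ERBα (ZT 8) and RNAP2 (ZT 4), 2 biological replicates each, had been run on mouse gastrocnemius. The authors aligned reads to mm10 with BWA (version 7.12 in the submitters' processing notes), filtered out duplicates and reads that map to several places, brought the libraries of a factor to a like size, and ran MACS2 2.1.1 on each sample against input, keeping peaks of p 0.05 or less. The deposited lists give each peak a fold enrichment over input, which is a ratio, and the −log10 of its p-value and q-value, all from the authors' MACS2 run. Reads were not used here, so no depth or counting interval is given per peak.

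Overlapping peaks (1 bp or more) were joined, and regions with peaks of both replicates were counted in windows of GENCODE M21 genes with Python 3.11.15. The 8 genes, the other pathway lists, the clock genes and the cell markers were chosen with earlier results of these data known, so counts are descriptions beside the share of all protein-coding genes, with no test. All 8 genes are described, and of the 82 others those with a clock region of −log10 p of at least 3 in both lists and the top 3 per factor. Results of 1 pathway gene and 1 marker list are not reported here. The code was tested on simulated peaks. Sequences and motifs were read from GRCm38 with pysam 0.24.0, and promoters from RefSeq (GRCm38.p6).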

Additional observations from a re-analysis of the deposited data

How the results depend on the processing

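Of 76 alternative counts under other thresholds, list sizes, overlaps, joining and distances, 61 stayed within 1.5 times the reported value. REV-ERBα at *Slc2a4* and *Akt2* and RNAP2 at 6 genes stood under a −log10 p of at least 2 or 3, equal list sizes, an overlap of 50% and all 3 other distances. The BMAL1 counts did not. With a −log10 p of at least 2 they fell to 1 gene and 1 region, and with at least 3 to 0 genes, 0 regions and 3 pathway genes. With a −log10 q of at least 1.3 they were 0 and 0. Under that limit REV-ERBα had 1 gene (*Slc2a4*) and 1 region, which is the one inside *Ybx2*. Its regions at the *Slc2a4* promoter and the upstream *Akt2* start were lost. RNAP2 then kept 6 regions, and 0 genes had a site in 3 of the 4 clock lists. Without gene bodies BMAL1 had 1 gene and 1 region. Within 5 kb, 0 genes had a site in 3 of the 4 clock lists, and with peaks up to 500 bp apart joined, chosen after seeing the data, 2 genes did.

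Leaving out a replicate means that a peak in 1 list is enough, so counts rise by construction. BMAL1 then gave 7 to 8 genes, 17 to 70 regions and 48 to 78 pathway genes. REV-ERBα gave 6 to 7, 13 to 19 and 40 to 45, and RNAP2 gave 8, 43 to 61 and 79 to 80. The 4-list site, which then needs all 3 lists left, gave 0 to 1, with 0 without REV-ERBα replicate 1. With motifs searched 50 bp to each side of the replicate 2 summit, CANNTG was in 1 REV-ERBα region (*Slc2a4*) and MEF2 in 0, and 26 of 28 motif counts held. No paired analysis was possible because peak lists were compared by overlap and no result comes from a test. The depth behind single peaks is unknown, and that limits all weak peaks.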
